A study of Arabidopsis thaliana with 12 samples.

Results

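The comparison set seedlings of spaQ, an Arabidopsis thaliana line with mutations in the 4 SPA genes, against wild-type seedlings of the accession Col-0 at 22 °C. It took 6 of the 12 libraries of the series, 3 per genotype, and covered the 17841 genes, of 33655 features, that passed a filter on low counts. Seedlings of both genotypes were 6 days old, and were raised on MS medium without sucrose for 5 days at 22 °C under 25 µmol of white light before the last treatment, for which the labels give 4 h in one place and 24 h in another. The other 6 libraries hold the same genotypes at 28 °C, where 3 libraries per group were again made; groups were taken from the sample titles, since the protocol text of every sample names 22. The labels do not name the alleles of the SPA genes or the organs harvested. Nothing in the labels says that the 3 libraries of a group came from separate cultures, so p-values measure only the spread between libraries, which may be technical. That spread was estimated for each gene over all 12 libraries, those at 28 °C included.

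SPA proteins bind the ubiquitin ligase COP1, and the complex marks light-signalling transcription factors such as HY5 for degradation. Light, through phytochromes and cryptochromes, holds the complex back, so HY5 and its partners build up and switch on genes for pigments and protection from light. Plants without SPA function behave in part as though they stood in stronger light, and such seedlings are known to be small. Values below are CPM (library-size scaled counts after TMM normalization) from 3′ Tag-Seq, which reads each transcript near its 3′ end. A gene was called when edgeR's quasi-likelihood test across all tested genes gave a Benjamini-Hochberg adjusted p under 0.05, with no minimum fold change, and log2 fold changes are spaQ minus Col-0. Most genes given with library values were picked as called genes of large change, so a lack of overlap between the genotypes follows largely from that choice. The share of all tested genes without overlap is not given here.

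At 22 °C 7574 genes were called (42.5% of those tested), 3698 higher in spaQ (20.7%) and 3876 lower (21.7%), and the difference reached 1 in log2 units for 3575. The median over all tested genes was −0.05. With the filter and the fit on only the 6 libraries at 22 °C, 8096 genes were called. At 28 °C 5519 were called (30.9%), with 3103 higher (17.4%) and 2416 lower (13.5%), and a median of 0.03. With library totals in place of TMM the share of higher calls at 28 °C was 28.4% instead of 56.2%, and the median was −0.23. At 22 °C that share was 41.3% instead of 48.8%, with a median of −0.14, so small differences at both temperatures depend on the scaling. The same sign was called at both temperatures for 3385 genes, 44.7% of the calls at 22 °C and 61.3% of those at 28 °C, and opposite signs for 134. The difference between the genotypes differed between the temperatures for 2117 genes (11.9%), and was called more positive at 28 °C for 1174 (6.58%) and more negative for 943 (5.29%). With library totals 25.6% of these calls were more positive, against 55.5% with TMM. The test of that difference uses the same 22 °C libraries as the comparison itself.

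Libraries held 2609808 to 6366025 counts at 22 °C, and 3 counts in a library corresponded to 0.504 to 1.25 CPM. The Col-0 libraries at 22 °C stayed close to each other, with a chi-square per degree of freedom of 1.47 to 2.13 between them, against 3.32 to 8.31 between the spaQ libraries, of which replicate 1 lay apart from the other 2. Transcripts of root cell types were lower in spaQ. The root marker score, the mean log2 CPM of 15 tested root genes, was 4.25, 4.28 and 4.28 in Col-0 and 3.15, 2.55 and 2.50 in spaQ at 22 °C, and 10 root hair genes summed to 67.3 to 78.1 CPM against 3.34 to 33.6 CPM. Shoot meristem, leaf and stomata markers also summed to less in spaQ, 167 to 189 CPM against 222 to 262 CPM. In bulk seedlings fewer cells of a type and less RNA per cell cannot be told apart. Adding that score to the fit as a covariate, called the root-adjusted fit here, left 1500 genes called, 1211 of them also called without it in the same direction. Of the 1500, 1033 (68.9%) were higher in spaQ, against 48.8% of the calls without the score. The score does not overlap between the genotypes at 22 °C. The fit has a coefficient for each group, so its slope on the score comes from differences between libraries of the same group. At 28 °C the score was 1.72, 2.89 and 1.79 in spaQ and 2.56 to 2.83 in Col-0. Root-adjusted values therefore rest largely on replicate 2 of spaQ at 28 °C and replicate 1 of spaQ at 22 °C. At 22 °C alone the score and the genotype cannot be told apart. In all, 35 lists of 651 genes were described, of which 581 were tested and 360 called, 194 higher and 166 lower in spaQ. Counts of called genes in a list stand against the shares over all tested genes, 20.7% higher and 21.7% lower. Root-adjusted counts stand instead against 1033 higher among 1500 calls over the 17841 tested genes.

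**Figure D1:**
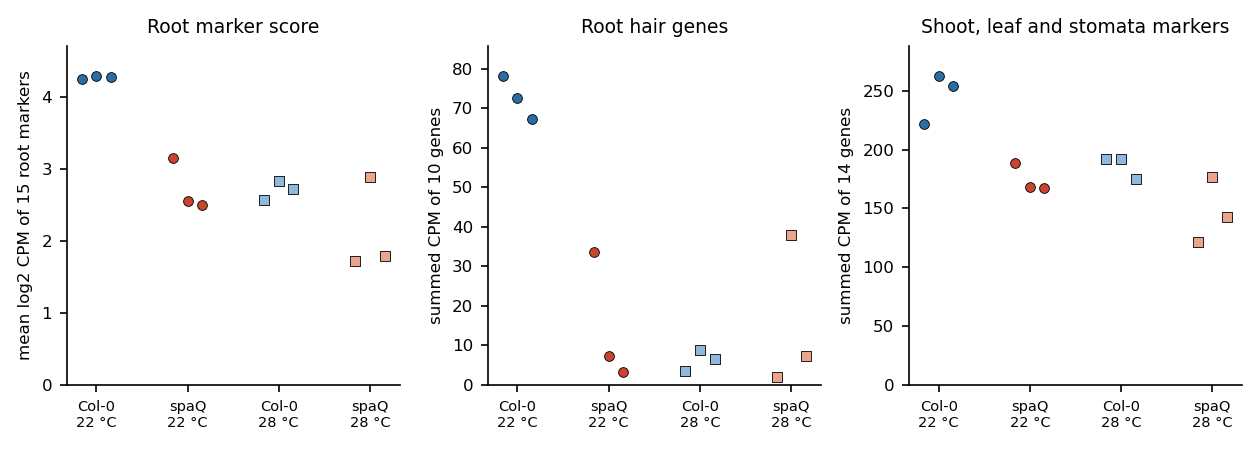
Root marker score, summed CPM of root hair genes and summed CPM of shoot, leaf and stomata markers (y axes) in each of the 12 libraries by group (x axis), 1 point per library in the order of replicates 1 to 3. Col-0 at 22 °C stood highest in all 3 panels, with a root marker score of 4.25 to 4.28 against 2.50 to 3.15 in spaQ at 22 °C.

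The SPA transcripts themselves were examined first. SPA1 (AT2G46340), SPA2 (AT4G11110) and SPA3 (AT3G15354) were lower in spaQ at −1.65, −0.92 and −1.69 in log2 fold change, with edgeR adjusted p of 3.2e-06, 0.005 and 1.9e-05. SPA4 (AT1G53090) was higher, at 13.3, 17.6 and 18.1 CPM in the Col-0 libraries and 40.5, 34.1 and 37.5 CPM in the spaQ libraries (log2 fold change 1.19, SE 0.175, edgeR adjusted p 2.1e-04), and the genotypes did not overlap for any of these genes. Reads near the end of a transcript leave its integrity unknown, and in the annotation SPA3 and SPA4 share ground with opposite-strand genes. COP1, the ligase subunit, stood at 37.4, 40.5 and 36 CPM in the Col-0 libraries and 54.1, 53.6 and 57.1 CPM in the spaQ libraries (log2 fold change 0.53, SE 0.109, edgeR adjusted p 0.002), higher in every spaQ library. FUS9, the COP10 protein that assists ubiquitin transfer, was also called higher (0.77, edgeR adjusted p 0.0015).

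RUP1 and RUP2, repressors of the UV-B receptor UVR8 that are themselves induced by light signalling through HY5, showed the largest rises in the ligase list. RUP1 stood at 5.43, 8.39 and 9.62 CPM in the Col-0 libraries and 37.5, 34.1 and 36.7 CPM in the spaQ libraries (log2 fold change 2.19, SE 0.19, edgeR adjusted p 4.7e-06). Each spaQ library was above every Col-0 library by a wide gap, and the difference at 28 °C was 2.97, SE 0.189, edgeR adjusted p 3.9e-07. RUP2 rose by 1.23 (edgeR adjusted p 4.1e-04), while UVR8 itself, at 0.23 (edgeR adjusted p 0.17), was not called. Of the 15 ligase genes 5 were higher and 3 lower, the latter being SPA1 to SPA3. These shares, 33.3% and 20%, stand against 20.7% and 21.7% over all tested genes. The CUL4 scaffold, DDB1A, DET1, FUS6 and CSN5A were not called, with log2 fold changes of 0.12, 0.16, 0.34, 0.00 and −0.46. In the root-adjusted fit 3 higher and 3 lower were called, and COP1 was not (0.43, edgeR adjusted p 0.24).

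Transcription factors that COP1 degrades, or that work with them, rose at the transcript level too. Of 16 tested, 11 were higher in spaQ and 1 was lower, with a median of 0.93 against −0.05 over all genes. HY5, the bZIP factor at the centre of the pathway, stood at 24.7, 30.2 and 24.6 CPM in the Col-0 libraries and 48.9, 56.7 and 47.1 CPM in the spaQ libraries (log2 fold change 0.94, SE 0.139, edgeR adjusted p 2.2e-04), and its homologue HYH rose by 0.92 (edgeR adjusted p 6.9e-05). The genotypes did not overlap for HY5. HFR1, a helix-loop-helix protein that holds PIF factors off DNA, stood at 3.32, 2.52 and 3.58 CPM in the Col-0 libraries and 10.3, 11.9 and 9.17 CPM in the spaQ libraries (log2 fold change 1.72, SE 0.273, edgeR adjusted p 3.8e-04). Its difference depended on temperature: Col-0 at 28 °C stood at 11.2, 9.51 and 6.22 CPM and the difference there was 0.24 (edgeR adjusted p 0.47; test of the change between temperatures, 0.021). Thinning all libraries to the smallest ended the call of HFR1 (edgeR adjusted p 0.055).

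The B-box proteins, zinc-finger partners and opponents of HY5, held the largest rises. BBX31 stood at 2.71, 5.03 and 3.13 CPM in the Col-0 libraries and 18.8, 16.9 and 19.2 CPM in the spaQ libraries (log2 fold change 2.33, SE 0.258, edgeR adjusted p 2.7e-05). BBX32 stood at 5.73, 7.27 and 2.68 CPM in the Col-0 libraries and 19.8, 24.9 and 23.4 CPM in the spaQ libraries (log2 fold change 2.13, SE 0.269, edgeR adjusted p 7.1e-05); a same-strand gene overlaps it. Both were separated between the genotypes at both temperatures. BBX30, BBX29, LZF1 (BBX22) and BBX28 rose by 1.98, 1.32, 1.04 and 0.96, and STH (BBX25) by 0.42. BBX21, which promotes light responses, was the called exception at −0.63 (edgeR adjusted p 0.0049), and STO (BBX24) and BZS1 (BBX20), at 0.31 and −0.36, were not called. In the fit of only the 6 libraries at 22 °C STO was called (0.35, edgeR adjusted p 0.0092). After adjustment for root markers 8 higher and 0 lower were called with a median of 0.96, among them BBX31 and BBX32, while HY5 was not (0.73, edgeR adjusted p 0.085).

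**Figure D2:**
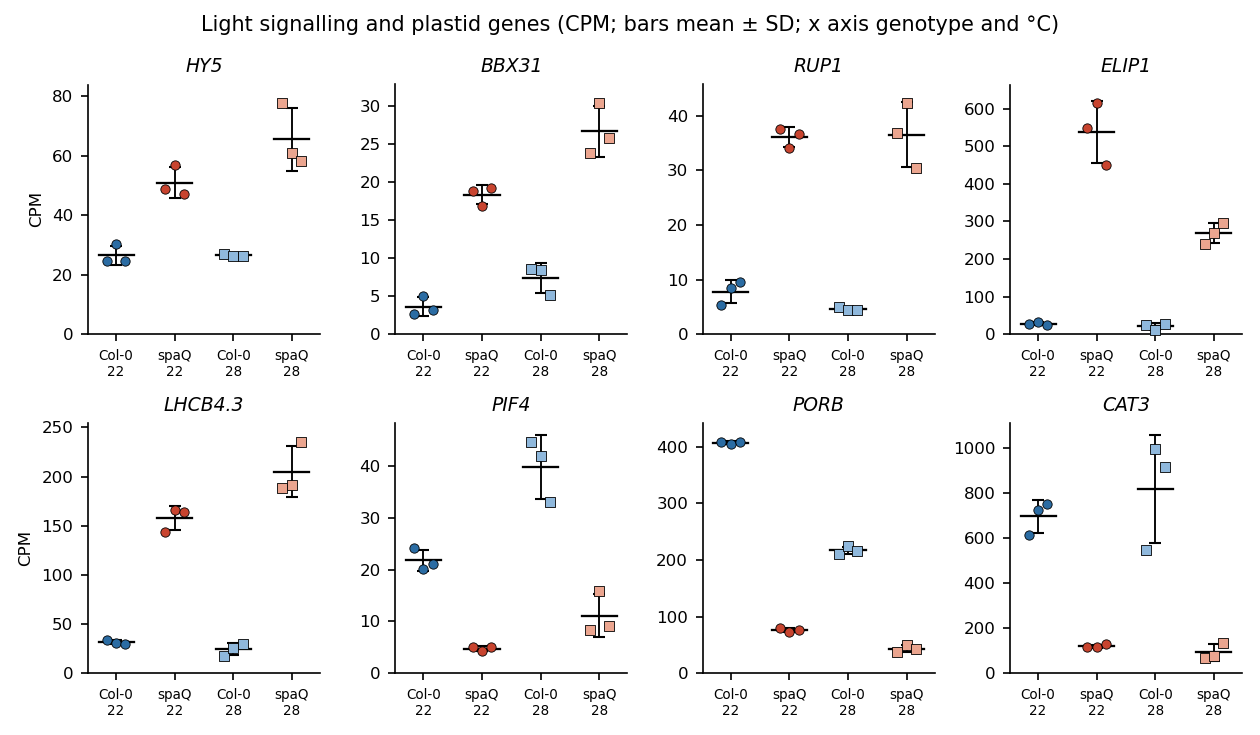
CPM (y axes, linear, from 0) of 8 genes in the 12 libraries by genotype and temperature (x axes), 1 point per library, with the mean and SD of each group of 3 as bars. In spaQ at 22 °C HY5, BBX31, RUP1, ELIP1 and LHCB4.3 stood above every Col-0 library at 22 °C, and PIF4, PORB and CAT3 below every one.

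HY5 binds DNA at ACGT cores, of which the G-box, CACGTG, is the best known form and one that PIF factors bind as well. The 250 bases before the start of each gene in RefSeq's TAIR10.1 annotation were therefore searched for CACGTG, which reads the same on both strands. It was present before 1780 of 27443 protein-coding genes (6.49%), before 7 of the 24 genes of the flavonoid enzyme list (29.2%), 2 of the 10 of the photoprotection list (20%) and 3 of the 18 light-signalling factors (16.7%). The share was higher still in the seed storage list (6 of 11, 54.5%) and the clock list (8 of 21, 38.1%), and the iron, chlorophyll breakdown, photoreceptor and starch lists had 26.1%, 23.1%, 21.4% and 21.4%. The light-harvesting and photosystem list, mostly lower in spaQ, had 14.6%. The core ACGT alone was before 44.1% of all protein-coding genes. Its share was 54.2% in the flavonoid enzyme list, 60% in photoprotection and 61.1% in light-signalling factors. It was 73.7% in the aliphatic glucosinolate list and 88% in the jasmonate list. These shares describe the letters only, in lists chosen with results known. A set of 5 is shown because these genes rose in spaQ at 22 °C and carry the motif, in capitals, at different distances from the start. They lie at chr3:8085670-8085919 (minus strand) for ELIP1, chr4:8708591-8708840 (plus strand) for BBX30, chr5:21938397-21938646 (minus strand) for UF3GT, chr5:1563036-1563285 (plus strand) for CHIL and chr5:4488226-4488475 (plus strand) for TT4, and each reads 5′ to 3′ toward its gene.
ELIP1: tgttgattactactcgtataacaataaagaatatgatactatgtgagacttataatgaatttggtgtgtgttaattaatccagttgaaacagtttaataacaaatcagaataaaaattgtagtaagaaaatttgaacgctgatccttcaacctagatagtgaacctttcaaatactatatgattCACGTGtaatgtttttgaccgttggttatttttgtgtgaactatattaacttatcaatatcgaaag
BBX30: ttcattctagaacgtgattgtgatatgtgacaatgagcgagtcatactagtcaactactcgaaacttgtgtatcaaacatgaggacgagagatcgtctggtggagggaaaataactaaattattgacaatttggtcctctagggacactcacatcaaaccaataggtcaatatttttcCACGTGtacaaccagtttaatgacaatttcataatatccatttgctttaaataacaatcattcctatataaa
UF3GT: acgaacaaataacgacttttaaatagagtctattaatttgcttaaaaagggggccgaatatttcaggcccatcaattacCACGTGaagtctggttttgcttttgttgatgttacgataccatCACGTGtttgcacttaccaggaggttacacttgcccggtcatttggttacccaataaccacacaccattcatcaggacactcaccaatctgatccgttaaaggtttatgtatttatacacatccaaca
CHIL: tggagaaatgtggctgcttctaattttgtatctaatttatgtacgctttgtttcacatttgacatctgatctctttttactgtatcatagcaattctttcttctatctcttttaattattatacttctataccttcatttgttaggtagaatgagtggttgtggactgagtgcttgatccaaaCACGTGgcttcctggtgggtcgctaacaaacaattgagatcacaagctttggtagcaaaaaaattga
TT4: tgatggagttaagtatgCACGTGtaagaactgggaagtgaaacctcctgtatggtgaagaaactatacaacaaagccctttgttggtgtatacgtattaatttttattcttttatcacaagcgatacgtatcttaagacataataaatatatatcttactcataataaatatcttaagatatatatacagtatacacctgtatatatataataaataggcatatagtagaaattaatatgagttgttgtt
The motif begins 66 bases before the start in ELIP1, 72 in BBX30, 67 in CHIL and 233 in TT4, and UF3GT carries 2, at 171 and 128 bases. ELIP1, with 1 motif, had a log2 fold change of 4.25, and UF3GT, with 2, one of 2.01. Matches are not evidence of binding, which was not measured here.

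Genes of photoprotection rose in spaQ, led by the early light-induced proteins ELIP1 and ELIP2, thylakoid proteins that bind pigments when light is in excess. ELIP1 stood at 28.6, 33 and 23.5 CPM in the Col-0 libraries and 547, 615 and 451 CPM in the spaQ libraries (log2 fold change 4.25, SE 0.27, edgeR adjusted p 9.5e-07), 19-fold higher. ELIP2 stood at 62.7, 63.5 and 73.6 CPM in the Col-0 libraries and 1182, 1299.7 and 1217 CPM in the spaQ libraries (log2 fold change 4.21, SE 0.13, edgeR adjusted p 2.2e-09), 18.5-fold higher. The lowest spaQ library was far above the highest Col-0 library for each. At 28 °C ELIP2 stood at 5.76, 4.62 and 4.61 CPM in Col-0 and 233, 269 and 269 CPM in spaQ, with a larger difference of 5.66 (edgeR adjusted p for the change between temperatures 0.0013). Of the 10 tested 7 were higher and none was lower, with a median of 0.61. SEP2, SEP1, OHP2 and OHP, small LHC-like proteins of the thylakoid, rose by 1.25, 0.53, 0.70 and 0.43, and ABA1, the zeaxanthin epoxidase, by 1.04. NPQ1, its counterpart that makes zeaxanthin in strong light, was not called (0.42). Adjusted for the root marker score, 8 higher and 0 lower were called, with ELIP1 at 4.21 and ELIP2 at 4.24.

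Most light-harvesting and photosystem genes moved the other way. Of 41 tested, 28 were lower in spaQ and 3 higher, with a median of −0.67. LHB1B1, a chlorophyll-binding protein of the main photosystem II antenna, stood at 1821, 1742 and 1647 CPM in the Col-0 libraries and 72, 77 and 90.9 CPM in the spaQ libraries (log2 fold change −4.44, SE 0.462, edgeR adjusted p 1.6e-05). Its 3′ end shares stretches of 50 bases with a neighbouring antenna gene, so the split of reads between the copies is uncertain. The antenna genes CAB3, LHCB2.3, LHCB4.2 and LHCB3 fell, at −2.31, −2.26, −1.48 and −1.45, and PETE1, a plastocyanin, at −1.97. Among photosystem I subunits PSAD-2 and PSAF fell, at −1.24 and −0.97. LHCB4.3, an antenna gene whose relatives LHCB4.1 and LHCB4.2 fell, at −0.39 and −1.48, instead stood at 33.8, 31.3 and 29.8 CPM in the Col-0 libraries and 144, 166 and 163 CPM in the spaQ libraries (log2 fold change 2.32, SE 0.172, edgeR adjusted p 1.7e-06). NPQ4, the PSBS protein that triggers the release of excess light energy as heat, and PSBR were the other called rises (0.48 and 0.39). Under adjustment for root markers 3 higher and 5 lower were called and the median was −0.19, LHB1B1 (−3.14) and LHCB4.3 (2.15) among those called. The list had 8 higher and 15 lower at 28 °C.

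Calvin cycle genes, whose enzymes fix carbon dioxide in the chloroplast, showed no called decrease. Of 16 tested 8 were higher, with a median of 0.33. CP12-2, a regulatory protein of the cycle, stood at 334, 342 and 356 CPM in the Col-0 libraries and 620.4, 618 and 604 CPM in the spaQ libraries (log2 fold change 0.84, SE 0.12, edgeR adjusted p 1.7e-04), with no overlap. RBCS3B, a small subunit of Rubisco, stood at 1873, 1714 and 1338 CPM in the Col-0 libraries and 2821, 2386 and 2968 CPM in the spaQ libraries (log2 fold change 0.73, SE 0.183, edgeR adjusted p 0.0067), though it shares sequence with 2 other copies. GAPA and RCA, the Rubisco activase, rose by 0.68 and 0.45, and SBPASE and PRK, at 0.22 and 0.32, were not called. With library totals 5 were higher and 1 lower, so the smaller of these rises depend on the scaling. At 28 °C all 16 were called higher with a median of 1.13, and 15 were called for the change between temperatures. When root markers were adjusted for, 12 higher and 0 lower were called.

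Many chlorophyll synthesis genes fell and most breakdown genes rose. Of 25 synthesis genes 14 were lower and 1 higher, with a median of −0.42. PORB, a protochlorophyllide oxidoreductase that makes chlorophyll in light, stood at 408, 404 and 408 CPM in the Col-0 libraries and 80.2, 72.4 and 75.9 CPM in the spaQ libraries (log2 fold change −2.41, SE 0.111, edgeR adjusted p 7.8e-08). The gap was similar at 28 °C, with 211, 224 and 216 CPM in Col-0 and 38, 49.4 and 42.7 CPM in spaQ (−2.32); a gene on the opposite strand overlaps PORB. POR C, HEMC, CH1, which makes chlorophyll b, and GUN4 fell, at −0.89, −0.93, −0.84 and −0.68. GUN5 and CHLI1, subunits of magnesium chelatase, were not called (0.07 and −0.15). HEMA2, which encodes a glutamyl-tRNA reductase, was the called rise, at 16.6, 22.1 and 24.4 CPM in the Col-0 libraries and 39.8, 80.8 and 57.5 CPM in the spaQ libraries (log2 fold change 1.47, SE 0.371, edgeR adjusted p 0.007). At 28 °C the list had 12 higher and 1 lower, and 19 of the 25 were called for the change between temperatures, all more positive at 28 °C. Where the root score entered the fit, 1 higher and 1 lower were called at 22 °C, PORB being the one lower (−2.05), and HEMA2 turned to −0.25 (edgeR adjusted p 0.81).

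Of 12 breakdown and senescence genes 9 rose, with a median of 1.35. They included NYE1, PPH and ACD1, which act in turn on chlorophyll in ageing leaves, at 1.35, 1.35 and 1.62. NAP, a NAC factor that drives leaf ageing, stood at 2.41, 3.08 and 3.13 CPM in the Col-0 libraries and 32.5, 32.6 and 32.1 CPM in the spaQ libraries (log2 fold change 3.47, SE 0.364, edgeR adjusted p 1.7e-05). SAG13, a senescence-associated dehydrogenase, stood at 0.603, 1.96 and 0.671 CPM in the Col-0 libraries and 148, 346 and 318 CPM in the spaQ libraries (log2 fold change 7.96, SE 0.835, edgeR adjusted p 1.8e-05). Both groups were clearly apart, but Col-0 at 28 °C stood at 15, 26.5 and 19.7 CPM for NAP and 37.9, 56.3 and 42.6 CPM for SAG13, far above Col-0 at 22 °C. In the root-adjusted fit 3 were called higher, NAP (2.52) and SAG13 (4.78) among them.

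**Figure D3:**
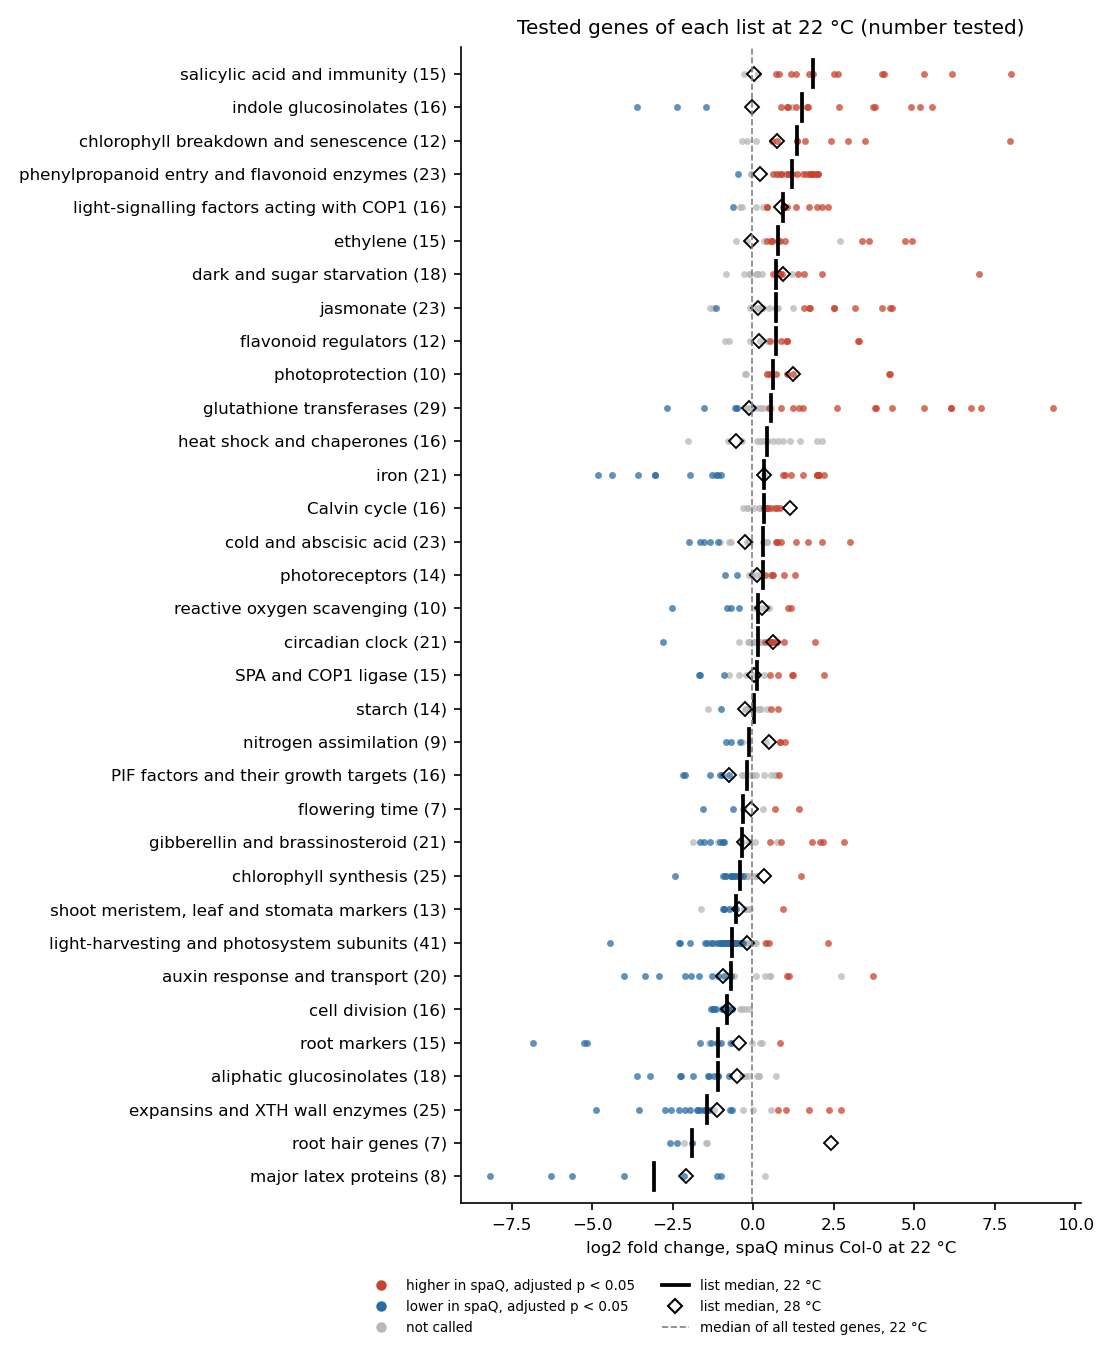
Log2 fold change of spaQ minus Col-0 at 22 °C (x axis) for each tested gene of 34 lists (y axis, number tested in brackets), coloured by the edgeR call, with list medians at 22 °C (bars) and 28 °C (diamonds). Medians at 22 °C ran from 1.85 for salicylic acid and immunity to −3.08 for major latex proteins, and those of light-signalling factors (0.93 and 0.87) lay close together at the 2 temperatures while those of immunity (1.85 and 0.03) did not.

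Photoreceptor transcripts differed in both directions, with 5 of 14 higher and 2 lower, not far from the background of calls. CRY3, a cryptochrome of the organelles, stood at 25, 24.6 and 22.2 CPM in the Col-0 libraries and 63.2, 58.2 and 52.5 CPM in the spaQ libraries (log2 fold change 1.29, SE 0.144, edgeR adjusted p 2.9e-05). PHYE, a phytochrome of light-grown plants, stood at 20.8, 24 and 17.2 CPM in the Col-0 libraries and 36.5, 40.2 and 44.2 CPM in the spaQ libraries (log2 fold change 0.96, SE 0.164, edgeR adjusted p 6.2e-04), with a same-strand gene overlapping it. PHYB and CRY2 rose by 0.57 and 0.35. PHYA, the far-red sensor, stood at 74.8, 78.8 and 81 CPM in the Col-0 libraries and 58.7, 56.7 and 50.5 CPM in the spaQ libraries (log2 fold change −0.50, SE 0.126, edgeR adjusted p 0.0072), lower in each spaQ library. PHOT1, a blue-light sensor for bending growth, fell, at −0.86, and CRY1 was not called (−0.08). The difference for PHYA was larger at 28 °C (−1.17; edgeR adjusted p for the change 0.029). After adjustment for root markers 1 higher and 0 lower were called, CRY3 (1.82) being the one higher, and PHYA and PHYE were not (edgeR adjusted p 0.22 and 0.061).

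Genes of elongation growth included several falls, of promoters and of antagonists of growth. PIF4, a bHLH factor that promotes stem elongation and is bound by phytochrome B, stood at 24.1, 20.1 and 21 CPM in the Col-0 libraries and 5.04, 4.21 and 5 CPM in the spaQ libraries (log2 fold change −2.17, SE 0.25, edgeR adjusted p 3.6e-05), 4.5-fold lower. PIL5 (PIF1) fell, at −0.74, whereas PIF3, PIL6 (PIF5) and PIF7 were not called (0.34, −0.06 and 0.09). Of 16 tested PIF factors and growth targets 6 were lower and 1 was higher, with a median of −0.19. These shares, 37.5% and 6.25%, stand against 21.7% and 20.7% over all tested genes. PAR2, a helix-loop-helix antagonist of shade growth, stood at 18.7, 19.8 and 16.3 CPM in the Col-0 libraries and 7.23, 8.05 and 6.25 CPM in the spaQ libraries (log2 fold change −1.34, SE 0.219, edgeR adjusted p 4.6e-04), and its relative PAR1 fell, at −2.1. HAT1 and HAT3, homeodomain factors of shade responses, fell, at −1.02 and −0.97, and the growth target YUC8, an auxin synthesis gene, was not called (0.54). Adjusted for the root marker score, 1 higher and 1 lower were called. The higher was UNE10 (1.16, edgeR adjusted p 0.0089), and the lower was PIF4, which lay at the threshold (−1.35, edgeR adjusted p 0.0496).

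Of 20 auxin genes 10 were lower and 3 higher, against 21.7% and 20.7% over all tested genes, with a median of −0.69. SHY2 (IAA3), a repressor of auxin response that is itself induced by auxin, stood at 29.6, 31.9 and 31.8 CPM in the Col-0 libraries and 3.7, 1.92 and 2.92 CPM in the spaQ libraries (log2 fold change −3.35, SE 0.341, edgeR adjusted p 1.4e-05). It did not overlap between the genotypes, and a gene on the opposite strand overlaps it. The auxin carriers LAX3, PIN7, AUX1 and PIN3 fell, at −2.91, −2.11, −1.94 and −1.27. BRU6 (GH3.2), an enzyme that ties auxin to amino acids, stood at 5.73, 3.91 and 3.58 CPM in the Col-0 libraries and 17, 63.2 and 96.3 CPM in the spaQ libraries (log2 fold change 3.7, SE 1.14, edgeR adjusted p 0.02), and spread widely within spaQ. It shares sequence near its 3′ end with another gene. Its call ended without replicate 2 or 3 of Col-0 or replicate 3 of spaQ (edgeR adjusted p 0.06, 0.066 and 0.069). Under adjustment for root markers 1 higher and 3 lower were called, SHY2 was not (−1.73, edgeR adjusted p 0.21), and BRU6 was at −0.41.

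Wall-loosening expansins and the XTH enzymes that recut xyloglucan had 16 of 25 lower, 5 higher and a median of −1.42. EXPA8 stood at 32, 26.3 and 30.9 CPM in the Col-0 libraries and 2.69, 2.3 and 2.5 CPM in the spaQ libraries (log2 fold change −3.53, SE 0.228, edgeR adjusted p 9.5e-07), and at 20.3, 14.9 and 17.6 CPM in Col-0 and 1.58, 1.22 and 2.76 CPM in spaQ at 28 °C (−3.26). XTH8 stood at 25.6, 27.4 and 24.2 CPM in the Col-0 libraries and 6.22, 0.766 and 2.5 CPM in the spaQ libraries (log2 fold change −2.75, SE 0.452, edgeR adjusted p 4.8e-04). No spaQ library reached the Col-0 range for either gene. EXPA5, XTH4 and EXP3 fell, at −2.54, −1.96 and −1.73. TCH4 (XTH22), XTH18 and XTH24 went the other way, by 2.73, 2.35 and 1.74. When root markers were adjusted for, 1 higher and 5 lower were called, EXPA8 (−4.4) among them and XTH8 not (−0.66, edgeR adjusted p 0.71).

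Gibberellin and brassinosteroid genes split evenly, 6 higher and 6 lower of 21, and 6 lower became 11 with library totals. These shares are near those over all tested genes, 20.7% and 21.7%. GID1B, a gibberellin receptor, stood at 8.14, 9.78 and 9.17 CPM in the Col-0 libraries and 37.7, 42.9 and 41.7 CPM in the spaQ libraries (log2 fold change 2.16, SE 0.203, edgeR adjusted p 8.2e-06). GA2OX6, which inactivates gibberellin, stood at 6.63, 5.87 and 5.37 CPM in the Col-0 libraries and 18.2, 23.4 and 22.9 CPM in the spaQ libraries (log2 fold change 1.83, SE 0.439, edgeR adjusted p 0.0051), and GA2OX8 and GA2OX2 rose by 2.83 and 2.06. The brassinosteroid synthesis genes DWF1, CPD and DWF4 fell, at −1.52, −1.34 and −0.93, and GAI, a DELLA repressor, at −1.64. Both groups were apart for GID1B and GA2OX6. Where the root score entered the fit, 3 higher and 2 lower were called, GID1B (1.63) among them and GA2OX6 not (0.49, edgeR adjusted p 0.74).

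Cell division genes had 11 of 16 lower and none higher, with a median of −0.82. CDKB2;1, a kinase of the entry into mitosis, stood at 17.2, 19.6 and 14.8 CPM in the Col-0 libraries and 7.06, 5.75 and 7.92 CPM in the spaQ libraries (log2 fold change −1.3, SE 0.213, edgeR adjusted p 4.5e-04). CYCD3;1, a cyclin of the entry into division, stood at 19.3, 18.7 and 19.2 CPM in the Col-0 libraries and 6.89, 6.51 and 11.3 CPM in the spaQ libraries (log2 fold change −1.26, SE 0.237, edgeR adjusted p 0.0012). Each spaQ library was below each Col-0 library for both, and each gene overlaps another, on the opposite strand for CDKB2;1 and on the same strand for CYCD3;1. PCNA1, the replication clamp, and MCM5, of the replicative helicase, fell, at −1.16 and −0.80. The median at 28 °C, −0.78, was close to this. In the root-adjusted fit no member passed edgeR's test, with 4 at an unadjusted p under 0.05 and a median of −0.59.

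Of 21 clock genes 9 were higher in spaQ and 1 was lower, against 20.7% higher and 21.7% lower over all tested genes. PRR7, a repressor of the morning genes, stood at 34.4, 30.2 and 30.9 CPM in the Col-0 libraries and 56.3, 57.9 and 71.7 CPM in the spaQ libraries (log2 fold change 0.96, SE 0.14, edgeR adjusted p 2.0e-04), and PRR9 and PRR5 of the same family rose by 1.91 and 0.67. GI and TOC1 rose by 0.57 and 0.54, while the evening complex genes ELF3 and ELF4 were not called (0.15 and 0.14). The morning factor LHY stood at 129.7, 104 and 113 CPM in the Col-0 libraries and 155, 151 and 143 CPM in the spaQ libraries (log2 fold change 0.37, SE 0.117, edgeR adjusted p 0.022), a call that ended with library totals (edgeR adjusted p 0.081) and without replicate 2 or 3 of Col-0 or replicate 1 or 2 of spaQ (edgeR adjusted p 0.097, 0.068, 0.06 and 0.058). CCA1, its partner, stood at 73.9, 72.1 and 70.5 CPM in the Col-0 libraries and 85.4, 69.4 and 63.8 CPM in the spaQ libraries, with overlapping groups (log2 fold change 0.02, SE 0.143, edgeR adjusted p 0.91). TCP11 (CHE), a repressor of CCA1, stood at 34.4, 37.7 and 39.2 CPM in the Col-0 libraries and 5.04, 5.36 and 5.84 CPM in the spaQ libraries (log2 fold change −2.79, SE 0.265, edgeR adjusted p 8.9e-06), far lower in every spaQ library. Its difference was smaller at 28 °C (−1.34; edgeR adjusted p for the change 0.028). With library totals 6 were higher, and in the root-adjusted fit 5 higher and 1 lower, PRR7 (1.11) and TCP11 (−2.52) among them. LHY was not called there (0.58, edgeR adjusted p 0.12).

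In the flowering list 7 of 13 genes were tested. The florigen gene FT had at most 1 count in a Col-0 library and 4 in a spaQ library and was not tested. AGL20 (SOC1), which promotes flowering downstream of FT, stood at 13.6, 17.6 and 15 CPM in the Col-0 libraries and 40.2, 37.9 and 47.1 CPM in the spaQ libraries (log2 fold change 1.43, SE 0.186, edgeR adjusted p 8.7e-05). CDF1, a repressor of CO and FT, stood at 14.2, 16.5 and 18.1 CPM in the Col-0 libraries and 5.72, 7.28 and 3.34 CPM in the spaQ libraries (log2 fold change −1.56, SE 0.222, edgeR adjusted p 1.7e-04). The groups were apart for both genes. SVP, a floral repressor, fell, at −0.63, and FLC was not called (−0.32). AT1G69570 (CDF5), another CDF gene, was called higher (0.68, edgeR adjusted p 0.0498), and its difference at 28 °C was 1.69 (edgeR adjusted p 8.2e-05). Of the 7 tested 2 were higher and 2 lower, 28.6% each, against 20.7% and 21.7% over all tested genes. At 28 °C the difference of AGL20 was larger (2.66; edgeR adjusted p for the change 0.015), and CDF1 was not called (−0.13; 0.01). After adjustment for root markers AGL20 was called (1.94) and CDF1 was not (−1.25, edgeR adjusted p 0.059).

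Most genes of flavonoid synthesis rose. Of 23 enzymes tested 19 were higher and 1, PAL3, was lower, with a median of 1.2. The entry enzymes PAL1 and C4H rose by 1.77 and 1.56. TT4, the chalcone synthase at the first committed step, stood at 417, 410.1 and 377 CPM in the Col-0 libraries and 1032, 918 and 806 CPM in the spaQ libraries (log2 fold change 1.2, SE 0.234, edgeR adjusted p 0.0015). Flavonol synthase FLS1 rose by 1.12, and the anthocyanin enzymes DFR and LDOX by 1.64 and 1.93. GSTF12 (TT19), which brings anthocyanin to the vacuole, stood at 18.4, 15.9 and 13.9 CPM in the Col-0 libraries and 67.4, 75.9 and 50.9 CPM in the spaQ libraries (log2 fold change 2.02, SE 0.317, edgeR adjusted p 3.4e-04). UF3GT, which adds a sugar to anthocyanin, stood at 5.73, 7.27 and 3.58 CPM in the Col-0 libraries and 26.9, 22.2 and 15 CPM in the spaQ libraries (log2 fold change 2.01, SE 0.476, edgeR adjusted p 0.0049). Neither overlapped between the genotypes at 22 °C, and a gene on the opposite strand overlaps GSTF12.

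At 28 °C neither GSTF12 nor UF3GT was called (−0.55 and −0.41), with Col-0 at 45.2, 62.7 and 33.5 CPM for GSTF12, and the change between temperatures was called for both (edgeR adjusted p 0.0052 and 0.029). Over the enzyme list 9 higher and 3 lower were called at 28 °C. Of 12 tested regulators 6 were higher. MYBL2, an R3-MYB repressor of anthocyanin, stood at 27.4, 27.4 and 41.6 CPM in the Col-0 libraries and 66.1, 59.8 and 76.3 CPM in the spaQ libraries (log2 fold change 1.06, SE 0.28, edgeR adjusted p 0.0091), and TTG1, the WD40 partner of the activating complex, at 21.1, 21.5 and 23.5 CPM in the Col-0 libraries and 40.5, 40.2 and 40.4 CPM in the spaQ libraries (log2 fold change 0.87, SE 0.139, edgeR adjusted p 3.8e-04). PAP1 and TT8, activators of anthocyanin, rose by 1.06 and 3.28, while the flavonol activator MYB12 was not called (1.0, edgeR adjusted p 0.092). Adjusted for the root marker score, 7 enzymes and 2 regulators were called higher, and the enzyme median was 1.26. GSTF12 (1.56), UF3GT (1.79), MYBL2 (1.61) and TTG1 (0.43) were not called (edgeR adjusted p 0.12, 0.24, 0.053 and 0.28).

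The glucosinolate branches, sulphur-rich defence compounds of the cabbage family, went in opposite directions. Of 16 indole genes 12 were higher and 3 lower, with a median of 1.51. CYP81F2, which hydroxylates indole glucosinolates in response to microbes, stood at 2.71, 5.03 and 4.47 CPM in the Col-0 libraries and 114, 134 and 118 CPM in the spaQ libraries (log2 fold change 4.88, SE 0.476, edgeR adjusted p 1.1e-05). IGMT2, which methylates the product, stood at 2.71, 2.8 and 3.13 CPM in the Col-0 libraries and 134, 78.9 and 105 CPM in the spaQ libraries (log2 fold change 5.19, SE 0.447, edgeR adjusted p 4.6e-06), and shares sequence with 3 other genes. The gap between the genotypes was wide for both. CYP79B2, at the entry to the branch, and its activator MYB51 rose by 3.73 and 3.79, while CYP81F4 and the activator MYB34 fell, at −3.61 and −1.46. Col-0 at 28 °C reached 90.4, 128 and 152 CPM for CYP81F2, which was not called there (0.18), and 9 of the list were called for the change between temperatures. Under adjustment for root markers 2 higher and 1 lower were called, CYP81F2 (3.2) and IGMT2 (4.34) being the 2 higher.

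Of 18 aliphatic genes 11 were lower and none higher, with a median of −1.11. CYP79F1, which converts chain-elongated methionine, stood at 45.8, 37.5 and 37.6 CPM in the Col-0 libraries and 4.37, 2.3 and 2.08 CPM in the spaQ libraries (log2 fold change −3.62, SE 0.528, edgeR adjusted p 2.0e-04). MAM1, of the chain elongation cycle, stood at 76.6, 69.9 and 76.1 CPM in the Col-0 libraries and 17.3, 18 and 9.17 CPM in the spaQ libraries (log2 fold change −2.28, SE 0.386, edgeR adjusted p 5.7e-04). Every spaQ library was far below the Col-0 range for both. The activators MYB29 and MYB28 fell, at −3.2 and −1.1. At 28 °C 6 were lower, with a median of −0.50. When root markers were adjusted for, 3 were called lower, CYP79F1 (−4.28) and MAM1 (−2.84) among them, and the median was −1.32.

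Defence genes that were almost silent in Col-0 at 22 °C were expressed in spaQ. Of 15 salicylic acid and immunity genes 13 were higher and none lower, with a median of 1.85. PAD3, the last enzyme of the synthesis of camalexin, an antimicrobial compound, stood at 1.81, 0.839 and 2.24 CPM in the Col-0 libraries and 58.5, 198 and 108 CPM in the spaQ libraries (log2 fold change 6.15, SE 0.999, edgeR adjusted p 4.3e-04). CYP71A13, an earlier enzyme of the same pathway, stood at 0.301, 0 and 0.671 CPM in the Col-0 libraries and 44.7, 151 and 101 CPM in the spaQ libraries. It had 4 counts in all of Col-0, so its ratio to spaQ was 234 (exact 95% interval 91.1 to 861), an interval for counting error only, and a gene on the opposite strand overlaps it. WRKY33, a factor that switches on camalexin genes, rose by 4.0, PR5 by 2.52 and PAD4 by 1.17. EDS16, the isochorismate synthase of salicylic acid, was not called (0.14).

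These genes were also expressed in Col-0 at 28 °C. PAD3 stood there at 136, 243 and 244 CPM, against 62.2, 9.05 and 158 CPM in spaQ at 28 °C, where replicate 2 lay far below the other 2. Over the immunity list 1 higher and 1 lower was called at 28 °C, with a median of 0.03, and 7 genes were called for the change between temperatures. In spaQ at 22 °C the library with the highest root marker score, replicate 1, had the lowest value of PAD3, CYP71A13, ACS6 and GSTU12. The same library had the highest value of IGMT2, and JAZ1 was lowest in replicate 3. These examples were picked after their values were seen, and a link with root content was not tested. Where the root score entered the fit, 1 of the 15 was called higher, and PAD3 (2.21) and CYP71A13 (3.40) were not (edgeR adjusted p 0.31 and 0.41).

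**Figure D4:**
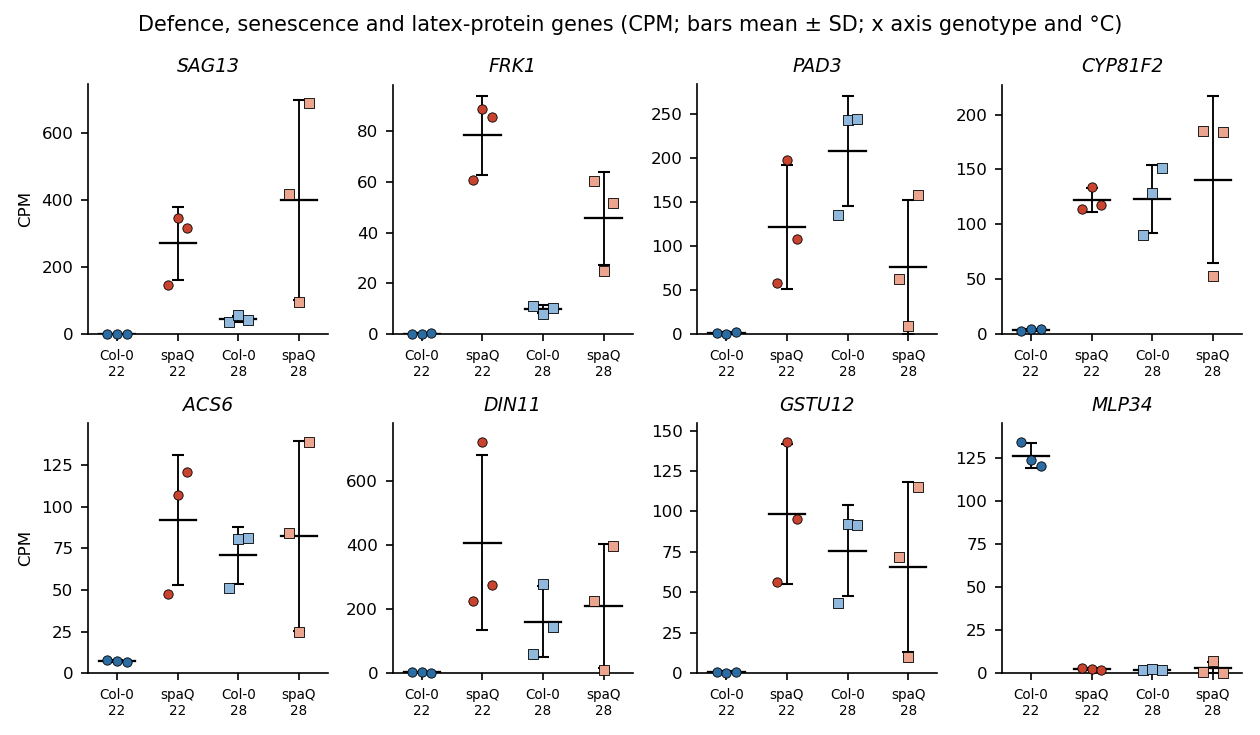
CPM (y axes, linear, from 0) of 8 genes in the 12 libraries by genotype and temperature (x axes), 1 point per library, with the mean and SD of each group of 3 as bars cut at 0. Col-0 at 22 °C stood near 0 for the first 7 genes and at 120 to 134 CPM for MLP34, and the other 3 groups overlap each other for PAD3, CYP81F2, ACS6, DIN11 and GSTU12.

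Of 15 ethylene genes 10 were higher and none lower, with a median of 0.78. ACS6, which makes the ethylene precursor and is induced by stress, stood at 8.14, 7.55 and 6.71 CPM in the Col-0 libraries and 47.4, 107 and 121 CPM in the spaQ libraries (log2 fold change 3.6, SE 0.572, edgeR adjusted p 3.7e-04). ACS2, of the same family, stood at 1.51, 1.4 and 0.448 CPM in the Col-0 libraries and 15.8, 49 and 39.2 CPM in the spaQ libraries (log2 fold change 4.94, SE 0.894, edgeR adjusted p 9.2e-04). The receptor genes ETR1 and ETR2 rose by 1.0 and 0.55, and EIN3, the central transcription factor, was not called (0.34). Of 23 jasmonate genes 9 were higher and 1 lower, with a median of 0.70. These shares, 39.1% and 4.35%, stand against 20.7% and 21.7% over all tested genes. JAZ1, a repressor that jasmonate itself induces, stood at 12.4, 12 and 12.8 CPM in the Col-0 libraries and 88.4, 161 and 82.6 CPM in the spaQ libraries (log2 fold change 3.15, SE 0.517, edgeR adjusted p 4.7e-04), and AOC1, of jasmonate synthesis, at 12.4, 11.5 and 11.6 CPM in the Col-0 libraries and 54.6, 86.2 and 63.4 CPM in the spaQ libraries (log2 fold change 2.51, SE 0.252, edgeR adjusted p 1.3e-05). The genotypes were apart for each of these genes. LOX2, AOS and MYC2 were not called (0.16, 0.04 and 0.47).

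ACS6 and JAZ1 were also high in Col-0 at 28 °C, at 50.9, 80.4 and 81 and 38.2, 114 and 64.3 CPM, and were not called at that temperature (0.22 and 0.57). For the change between temperatures 6 ethylene and 8 jasmonate genes were called. In the root-adjusted fit no ethylene gene passed edgeR's test (3 at an unadjusted p under 0.05). Among jasmonate genes 2 higher and 1 lower were called there, AOC1 (1.57) among them and JAZ1 not (1.45, edgeR adjusted p 0.29).

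Glutathione transferases, which tag toxic compounds, split between a strongly raised and a lowered group. Of 29 tested 15 were higher and 4 lower, with a median of 0.54. GSTU12 stood at 0.905, 0 and 1.12 CPM in the Col-0 libraries and 56.5, 143 and 95.5 CPM in the spaQ libraries (log2 fold change 7.06, SE 1.02, edgeR adjusted p 1.9e-04), and GSTU11 at 0.301, 0.559 and 0.224 CPM in the Col-0 libraries and 10.8, 70.5 and 48 CPM in the spaQ libraries, a ratio of 94.1 (exact 95% interval 36.5 to 347) over 4 counts in Col-0. GSTF6 and GSTF7, which are induced by pathogens, rose by 6.14 and 6.15, and GSTU20 and GSTU13 fell, at −2.67 and −1.53. GSTU12 in Col-0 at 28 °C, at 43.4, 92.2 and 91.7 CPM, overlapped the range of spaQ at 22 °C. 12 of the list were called for the change between temperatures. After adjustment for root markers 4 higher and 2 lower were called, and GSTU12 (3.75) and GSTU11 (2.31) were not (edgeR adjusted p 0.082 and 0.39).

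Genes induced by darkness and lack of sugar had 9 of 18 higher and none lower, with a median of 0.72. DIN11, a dark-induced oxygenase, stood at 4.22, 2.8 and 2.46 CPM in the Col-0 libraries and 225, 720.0 and 276 CPM in the spaQ libraries (log2 fold change 7.02, SE 1.2, edgeR adjusted p 6.1e-04). GDH2, a glutamate dehydrogenase used when carbon is short, stood at 249, 267 and 311 CPM in the Col-0 libraries and 832, 1578 and 1236 CPM in the spaQ libraries (log2 fold change 2.14, SE 0.33, edgeR adjusted p 3.0e-04). TPS8 to TPS11, of the trehalose phosphate synthase family that responds to sugar, rose by 0.83, 0.62, 0.82 and 1.4. ASN1, the asparagine synthetase known as DIN6, was not called (−0.85). DIN11 in spaQ at 28 °C stood at 226, 10.5 and 396 CPM, with replicate 2 far below the others. Adjusted for the root marker score, 0 higher and 2 lower were called, with 6 at an unadjusted p under 0.05 in either direction. DIN11 (2.53) and GDH2 (0.46) were not called there (edgeR adjusted p 0.38 and 0.52).

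Cold and abscisic acid genes were divided, 7 higher and 5 lower of 23, shares near the background. RHL41 (ZAT12), a zinc-finger factor of several stresses, stood at 8.74, 10.9 and 10.5 CPM in the Col-0 libraries and 38, 140.2 and 67.6 CPM in the spaQ libraries (log2 fold change 3.0, SE 0.565, edgeR adjusted p 0.0012). RAB18, a dehydrin induced by abscisic acid, stood at 6.63, 5.03 and 5.82 CPM in the Col-0 libraries and 20.5, 42.5 and 14.6 CPM in the spaQ libraries (log2 fold change 2.13, SE 0.703, edgeR adjusted p 0.027), and its call ended without replicate 1, 2 or 3 of Col-0 or replicate 2 of spaQ (edgeR adjusted p 0.062, 0.079, 0.076 and 0.11). The dehydrins ERD10 and COR47 fell, at −1.98 and −1.54, and ABI1 rose by 1.34. A gene on the opposite strand overlaps RAB18. Under adjustment for root markers no gene passed edgeR's test, with 10 at an unadjusted p under 0.05. In the heat shock list, of 16 tested, none passed edgeR's test, none had an unadjusted p under 0.05 and none was called by DESeq2; none was called in the root-adjusted fit, with 4 at an unadjusted p under 0.05. HSP101, HSP90.1 and HSP70 had log2 fold changes of 0.37, 0.76 and 0.42.

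The 3 catalases, which break down hydrogen peroxide, changed in different directions. CAT2, the main leaf catalase, stood at 842, 884 and 899 CPM in the Col-0 libraries and 1874, 1883 and 2112 CPM in the spaQ libraries (log2 fold change 1.16, SE 0.106, edgeR adjusted p 6.5e-06), and overlaps a gene on the opposite strand. CAT3 stood at 614, 722 and 750.0 CPM in the Col-0 libraries and 117, 117 and 128 CPM in the spaQ libraries (log2 fold change −2.53, SE 0.261, edgeR adjusted p 1.6e-05). Both were separated between the genotypes, as they were at 28 °C, where CAT3 stood at 545, 992 and 916 CPM in Col-0 and 67.7, 75.8 and 134 CPM in spaQ. CAT1 rose by 1.07, and the superoxide dismutases CSD2, FSD2 and FSD3 fell, at −0.82, −0.70 and −0.43. Of 10 tested 2 were higher and 4 lower, 20% and 40% against 20.7% and 21.7% over all tested genes. In the root-adjusted fit CAT2 (1.31) and CAT3 (−2.76) were the 2 called.

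Of 14 starch genes 2 were higher and 1 lower, fewer calls than the background. ADG1 (APS1), the small subunit of the enzyme that makes the starch precursor, stood at 244, 217 and 220.2 CPM in the Col-0 libraries and 382, 386 and 389 CPM in the spaQ libraries (log2 fold change 0.77, SE 0.0954, edgeR adjusted p 6.5e-05). DPE1, of starch breakdown, stood at 36.5, 39.7 and 34 CPM in the Col-0 libraries and 18.3, 19.5 and 16.7 CPM in the spaQ libraries (log2 fold change −1.01, SE 0.139, edgeR adjusted p 1.3e-04). The genotypes did not overlap for either. When root markers were adjusted for, 4 higher and 0 lower were called, and ADG1 was called (0.78) and DPE1 was not (−0.92, edgeR adjusted p 0.068). Of 9 nitrogen genes 3 were higher and 3 lower, 33.3% each, against 20.7% and 21.7% over all tested genes. The nitrate reductases NIA1 and NIA2 stood apart between the genotypes. NIA1 stood at 425, 424 and 418 CPM in the Col-0 libraries and 849.6, 677 and 977 CPM in the spaQ libraries (log2 fold change 0.98, SE 0.171, edgeR adjusted p 7.2e-04), and NIA2 at 959.8, 1024 and 1069 CPM in the Col-0 libraries and 1653, 1755 and 2075 CPM in the spaQ libraries (log2 fold change 0.84, SE 0.119, edgeR adjusted p 1.5e-04). The nitrate transporter NRT1.1 fell, at −0.68 and the ferredoxin-dependent glutamate synthase GLU1 rose by 0.84. Where the root score entered the fit, 2 higher and 0 lower were called, and NIA1 was called (1.43) and NIA2 was not (0.47, edgeR adjusted p 0.11).

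Iron genes split by role. Of 21 tested 10 were higher and 10 lower. The uptake genes of the root surface were lower: IRT1, the iron transporter, stood at 85.6, 67.4 and 72 CPM in the Col-0 libraries and 11.4, 0.766 and 2.92 CPM in the spaQ libraries (log2 fold change −3.59, SE 0.692, edgeR adjusted p 0.0014), and FRO2, the ferric reductase, at 41.6, 22.9 and 32.7 CPM in the Col-0 libraries and 6.39, 1.15 and 2.08 CPM in the spaQ libraries (log2 fold change −3.05, SE 0.513, edgeR adjusted p 5.6e-04). Both groups were apart, with replicate 1 of spaQ above the other 2. FRU (FIT), the root factor that switches these on, fell, at −3.05. The regulators that signal iron shortage in the whole plant, bHLH38, bHLH39, BHLH100 and BHLH101, rose by 1.99, 2.05, 2.19 and 2.01, with BTS at 1.97 and PYE at 1.0. The iron stores FER1, FER3 and FER4 fell, at −1.09, −1.01 and −1.15. At 28 °C the sign of IRT1 and FRO2 was opposite (3.73 and 1.64), with IRT1 at 0.465, 0.257 and 0.461 CPM in Col-0 and 1.58, 14.4 and 0 CPM in spaQ, so that its value there rests on replicate 2 of spaQ. In the root-adjusted fit 4 higher and 2 lower were called, and IRT1 (1.46) and FRO2 (−1.56) were not (edgeR adjusted p 0.31 and 0.24).

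Major latex proteins, small ligand-binding proteins, held the deepest falls, with 7 of 8 lower and a median of −3.08. MLP34 stood at 134, 124 and 120.2 CPM in the Col-0 libraries and 2.86, 2.68 and 1.67 CPM in the spaQ libraries (log2 fold change −5.63, SE 0.461, edgeR adjusted p 3.2e-06), and MLP329 at 95, 101 and 98.7 CPM in the Col-0 libraries and 1.68, 1.15 and 0.417 CPM in the spaQ libraries (log2 fold change −6.26, SE 0.827, edgeR adjusted p 9.8e-05). MLP328 stood at 38.3, 33 and 31.5 CPM in the Col-0 libraries and 0.168, 0 and 0 CPM in the spaQ libraries, with 1 count in all of spaQ and a ratio of Col-0 to spaQ of 372 (exact 95% interval 66.4 to 14740.0). No spaQ library came near the Col-0 range for any of them. Col-0 at 28 °C was low as well, at 1.95, 2.31 and 2.19 CPM for MLP34 and 3.9, 3.08 and 1.5 CPM for MLP329. In spaQ at 28 °C MLP34 stood at 0.792, 7.34 and 0.307 CPM and was not called (0.61), and MLP329, at 5.54, 30.1 and 0.921 CPM, was called higher (2.2, edgeR adjusted p 0.035), with replicate 2 far above the other 2 for both. After adjustment for root markers 4 were called lower, MLP328 (−8.98, edgeR adjusted p 0.031) among them. MLP34 (−2.46) and MLP329 (−2.74) were not called there (edgeR adjusted p 0.057 and 0.085).

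Root and shoot marker genes that were called were mostly lower in spaQ. Of 15 tested root markers 8 were lower and 1 was higher. THAS1, the first enzyme of the root triterpene thalianol, stood at 29.2, 21.2 and 21.3 CPM in the Col-0 libraries and 0.336, 0 and 0 CPM in the spaQ libraries, with 2 counts in spaQ and a ratio of 129 (exact 95% interval 35.4 to 1072). CYP705A5, of the same pathway, stood at 26.2, 26.8 and 31.1 CPM in the Col-0 libraries and 1.18, 0 and 0.417 CPM in the spaQ libraries (log2 fold change −5.25, SE 0.598, edgeR adjusted p 3.3e-05). ESB1, of the endodermal barrier, fell, at −1.14, and SCR, of the same layer, was not called (0.21). Of 7 root hair genes 3 were lower. PRP3, a wall protein of root hairs, stood at 25.6, 28.8 and 25.3 CPM in the Col-0 libraries and 8.41, 1.53 and 0.417 CPM in the spaQ libraries (log2 fold change −2.57, SE 0.77, edgeR adjusted p 0.017), and its call ended without replicate 2 or 3 of spaQ (edgeR adjusted p 0.058 and 0.054). In the shoot list STOMAGEN, which promotes stomata, stood at 21.7, 24.3 and 22.4 CPM in the Col-0 libraries and 13.5, 13.4 and 7.51 CPM in the spaQ libraries (log2 fold change −0.95, SE 0.21, edgeR adjusted p 0.0031), and TMM, a receptor of stomatal spacing, at 15.1, 16.2 and 13 CPM in the Col-0 libraries and 8.24, 6.9 and 7.92 CPM in the spaQ libraries (log2 fold change −0.92, SE 0.259, edgeR adjusted p 0.013). The genotypes did not overlap for these genes. Of 13 tested in the shoot list 5 were lower and 1 higher, 38.5% and 7.69% against 21.7% and 20.7% over all tested genes. In the root-adjusted fit no root or shoot marker passed edgeR's test, with 5 root and 1 shoot markers at an unadjusted p under 0.05. The score is the mean of these same 15 root markers, THAS1 and CYP705A5 among them, so this fit cannot test their difference. THAS1 (−6.17), STOMAGEN (−0.22) and TMM (−0.03) were not called (edgeR adjusted p 0.056, 0.77 and 0.99), and CYP705A5 turned to 2.69 (edgeR adjusted p 0.44). Root hair genes had 3 higher and 0 lower there with a median of 3.48, opposite to the fit without the score, and PRP3 was called higher (3.24, edgeR adjusted p 0.04). Of 11 seed storage and maturation genes 1 was tested and not called, and they summed to 1.57 to 1.96 CPM in Col-0 and 3.34 to 63.2 CPM in spaQ. The part of cell-type composition in the other results was not tested. The covariate fits cannot separate root content from whatever else differs between libraries of the same group.

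**Figure D5:**
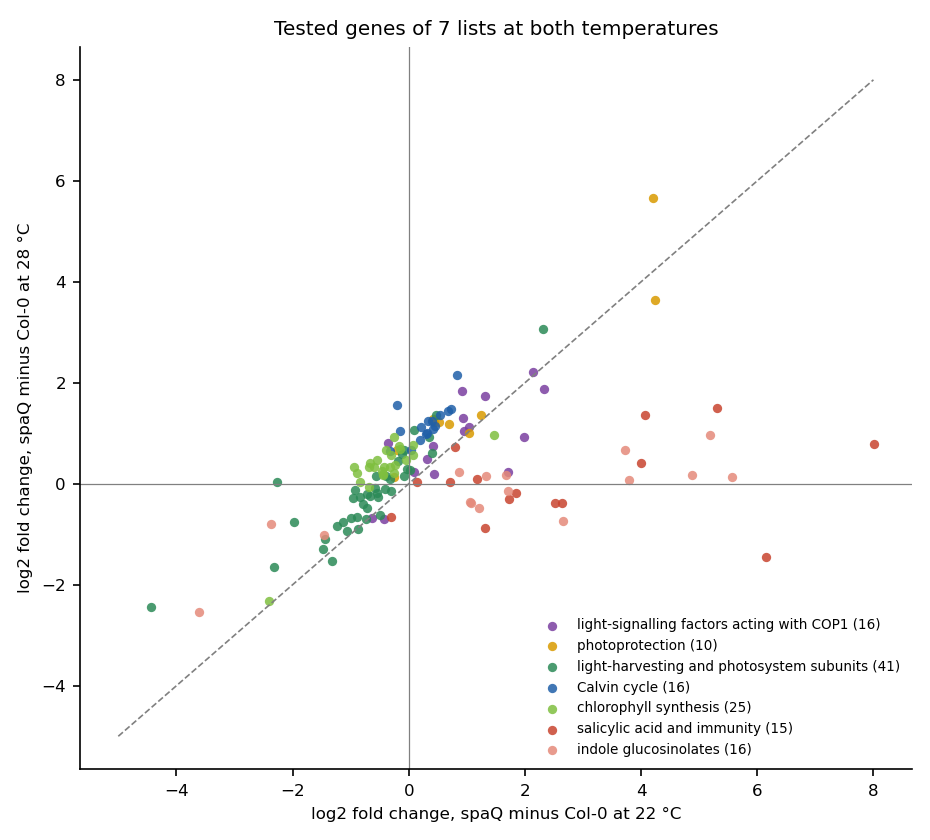
Log2 fold change of spaQ minus Col-0 at 22 °C (x axis) and at 28 °C (y axis) for the tested genes of 7 lists, with the line of equal values dashed. The contrasts share no library. ELIP1 and ELIP2 lie at 4.25 and 4.21 at 22 °C and 3.64 and 5.66 at 28 °C, the Calvin cycle genes lie above the line with medians of 0.33 and 1.13, and immunity genes lie along the x axis.

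Over the whole table, the genes with the largest rises among those called, averaging at least 10 CPM and not overlapping, were WAKL10, FRK1, CYP71A13, SAG13 and TH8. FRK1, a receptor-like kinase induced by bacterial flagellin and in ageing leaves, stood at 0, 0.28 and 0.448 CPM in the Col-0 libraries and 60.5, 88.5 and 85.5 CPM in the spaQ libraries, with 3 counts in Col-0 and a ratio of 275 (exact 95% interval 93.8 to 1337). WAKL10, a wall-associated kinase-like protein, stood at 0, 0.28 and 0 CPM in the Col-0 libraries and 28.1, 66.7 and 30.0 CPM in the spaQ libraries, a ratio of 428 (exact 95% interval 76.5 to 16960.0) over 1 count. TH8, a thioredoxin, stood at 0, 0.28 and 0 CPM in the Col-0 libraries and 11.8, 36.8 and 35.9 CPM in the spaQ libraries, also over 1 count, with a ratio of 261 (exact 95% interval 46.5 to 10360.0). A gene on the opposite strand overlaps FRK1. The order of these genes rests on the few counts of Col-0. At 28 °C FRK1 stood at 11, 7.96 and 10.5 CPM in Col-0 and 60.2, 24.9 and 51.6 CPM in spaQ, and was still called (2.16, SE 0.291, edgeR adjusted p 1.2e-04). Adjusted for the root marker score, FRK1 (6.55), SAG13 (4.78) and WAKL10 (5.86) were called and TH8 was not (3.81, edgeR adjusted p 0.14).

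The deepest falls by the same rule were MLP328, THAS1, MLP329, AT1G66100 and MLP34. AT1G66100, a thionin-family gene in the annotation, stood at 47.9, 41.7 and 49 CPM in the Col-0 libraries and 1.18, 0.766 and 0.417 CPM in the spaQ libraries (log2 fold change −5.64, SE 0.261, edgeR adjusted p 7.8e-08). A same-strand gene overlaps it. At 28 °C Col-0 stood at 2.6, 3.34 and 4.15 CPM and spaQ at 0.792, 0.489 and 0.614 CPM (−2.4, edgeR adjusted p 3.9e-04). Under adjustment for root markers it was called (−5.0).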

How the data were processed

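RNA of 12 Arabidopsis seedling libraries was measured by 3′ Tag-Seq, and the authors deposited whole-number read counts per gene with no normalization. The submitters' processing notes name FastQC, Bowtie2, TopHat, HTSeq and edgeR. Their versions, the genome build, the annotation, the strand setting and the treatment of duplicates are not given in the sources used here. Overlapping genes and near-identical copies are therefore uncertain, and reads without molecular identifiers make intervals and floors (3 counts per library) cover counting error only. Ambiguous reads, 0.453% to 0.616% of a library, and the other summary lines were left out.

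Groups followed the sample titles. Total counts ran from 2609808 to 9390725. Genes were filtered with filterByExpr and scaled by TMM, with factors from 0.917 to 1.16. Then edgeR 4.0.16 (R 4.3.3) fitted a quasi-likelihood model with 4 group coefficients to all 12 libraries, and each contrast was tested two-sided, with Benjamini-Hochberg adjustment over 17841 genes. The fit was tested on simulated data. Each SE is the estimate over the root of its F value. Where each library of a group held 3 counts or fewer, the ratio of summed counts has an exact 95% interval. Placing such genes at their ratio to the floor changed the list medians of heat shock (0.43 to 0.48) and starch (0.02 to 0.11) and of the single tested seed gene, and no other list median by 0.01 or more.

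The members and gene lists were chosen with earlier results of these data known. Genes named with values are SPA1 to SPA4; COP1, HY5, HFR1, PIF4, PHYA, CCA1, LHY and FT; per list the 2 called genes of largest change at 22 °C averaging at least 10 CPM; and the 5 highest and 5 lowest such genes without overlap between the genotypes. Other genes in the text, TT4 with its library values among them, are examples picked after their values were seen. Names and upstream bases come from RefSeq's TAIR10.1. Lists were described by counts and medians and not tested as sets. Alternatives were DESeq2's size factors and Wald test (DESeq2 1.42.0), library totals, other count filters, a replicate block, the root marker score as a covariate, thinning to the smallest library, only the 6 libraries compared, and leaving out each library.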

Additional observations from a re-analysis of the deposited data

Results flagged for a closer look

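The change of the difference between spaQ and Col-0 from 22 °C to 28 °C was tested for 79 named genes, and passed edgeR's threshold for 34 (adjusted p under 0.05, 3 libraries a group). The values below are the log2 difference at 28 °C minus that at 22 °C, and negative values mean a lower log2 ratio of spaQ to Col-0 at 28 °C than at 22 °C. The test shares its 22 °C libraries with the comparison reported above.

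Among defence and hormone genes the change was −7.63 for WAKL10, −7.60 for PAD3, −7.27 for GSTU12, −7.22 for CYP71A13, −5.90 for FRK1, −4.70 for CYP81F2 and −4.23 for IGMT2. For ACS2, ACS6, RHL41, JAZ1 and AOC1 it was −3.84, −3.38, −2.83, −2.58 and −1.71, and for GID1B −1.30. In the senescence and starvation lists it was −6.62 for DIN11, −4.81 for SAG13 and −3.12 for NAP. For the anthocyanin genes GSTF12 and UF3GT it was −2.57 and −2.42. Replicate 2 of spaQ at 28 °C stood lowest of its group for every gene named in this paragraph except UF3GT, for which replicate 1 was lowest.

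The change was positive for genes that had been low in spaQ at 22 °C and were low in Col-0 at 28 °C as well. It was 8.46 for MLP329, 7.32 for IRT1, 6.23 for MLP34, 5.06 for THAS1, 4.98 for PRP3, 4.69 for FRO2 and 3.24 for AT1G66100. Replicate 2 of spaQ at 28 °C stood highest of its group for MLP329, IRT1, MLP34, PRP3 and FRO2, at 30.1, 14.4, 7.34, 11.5 and 23.2 CPM against 0.921 to 5.54, 0 to 1.58, 0.307 to 0.792, 0 to 0.921 and 8.9 to 12.7 CPM in the other 2. For LHB1B1 it was 2.0 and for STOMAGEN 1.21. Light, clock and flowering genes had 1.46 for TCP11, 1.45 for ELIP2, 1.43 for CDF1, 1.33 for CP12-2 and 1.23 for AGL20, with −1.48 for HFR1 and −0.67 for PHYA.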

How the results depend on the processing

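Over the alternatives other than the root covariate, the count of genes called at 22 °C ran from 6019 to 8414, and the replicate block gave 6961. Leaving out a 22 °C library gave 6019 to 7099, and leaving out a 28 °C library, an alternative chosen after seeing the data, gave 7187 to 8414. The root marker score as a covariate gave 1500, and 120 list members in place of 360. It turned HEMA2 to −0.25, BRU6 to −0.41, IRT1 to 1.46, PRP3 to 3.24 and CYP705A5, itself part of the score, to 2.69, and ended the call of 36 other named genes. CCA1, not called, was at −0.061 with library totals, −0.10 after thinning and −0.12 without spaQ replicate 1; leaving out a library at 22 °C gave −0.12 to 0.11. For the change between temperatures 1343 genes were called with the replicate block and 556 with the root covariate, and between 972 and 2841 on leaving out 1 library: 972 without Col-0 22 replicate 2 and 2841 without spaQ 28 replicate 3. The cause of these shifts was not tested. Equal replicate numbers did not pair the libraries (mean correlation of deviations 0.02 at 22 °C and −0.12 at 28 °C), and all 79 tested named genes kept their side of the threshold and their direction under the block.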
